A study of Mus musculus with 6 samples.

Results

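The EAG, ERG and ELK potassium channels, encoded by the Kcnh genes, were examined in 2 neighbouring areas of the mouse ventromedial hypothalamus (VMH), VMHpvlm and VMHpvll. The members were the rows of the deposited table whose symbol was Kcnh1 to Kcnh8, 8 of 47480 genes, and all 8 had a mean high enough to be tested. All mice were females of the background VgluT2-cre/Ai6, in which a reporter labels cells that have expressed the glutamate transporter gene Slc17a6. Laser capture from frozen sections gave 3 VMHpvlm libraries and 3 VMHpvll libraries of total RNA, named F19, F20 and KH_161103 in both regions (the KH_161103 titles end in C and D, and their region is taken from the source label). Age, animal number and pooling were not stated in the labels, and capture by region takes glia and vessels along with neurons. A shared name was used as a pair, but nothing says that separate names are separate animals. P-values therefore cover only the spread among libraries, mostly as pooled over genes, and that spread may be technical.

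Kcnh channels are voltage-gated potassium channels whose subunits assemble as tetramers and carry a PAS domain at the start and a domain related to cyclic nucleotide-binding domains at the end. ERG channels (Kcnh2, Kcnh6 and Kcnh7) inactivate quickly, recover on repolarisation and close slowly, and in neurons their current limits repetitive firing and helps set the resting potential. EAG channels (Kcnh1 and Kcnh5) give outward currents with little inactivation, and calcium-bound calmodulin inhibits Kcnh1 channels. ELK channels (Kcnh3, Kcnh4 and Kcnh8) open at more negative voltages and act on excitability near rest.

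The sequences just before the start sites of Kcnh7, Kcnh5 and Kcnh2 are shown because these were the 3 members with the smallest p-values, all with more reads in VMHpvlm. RefSeq windows (build GRCm38.p6, the assembly of mm10) were held for 7 of 8 members, and Kcnh3 had none. Each run is the 250 bases before the RefSeq start site, 5′ to 3′ on the gene's strand, with capitals marking the GC box GGGCGG on either strand.
Kcnh7 (chr2:63184288-63184537, minus strand): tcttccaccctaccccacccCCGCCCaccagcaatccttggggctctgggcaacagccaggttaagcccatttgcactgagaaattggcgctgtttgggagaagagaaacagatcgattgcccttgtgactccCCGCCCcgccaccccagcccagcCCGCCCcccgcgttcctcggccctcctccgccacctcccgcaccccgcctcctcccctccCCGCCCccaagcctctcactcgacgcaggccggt
Kcnh5 (chr12:75177333-75177582, minus strand): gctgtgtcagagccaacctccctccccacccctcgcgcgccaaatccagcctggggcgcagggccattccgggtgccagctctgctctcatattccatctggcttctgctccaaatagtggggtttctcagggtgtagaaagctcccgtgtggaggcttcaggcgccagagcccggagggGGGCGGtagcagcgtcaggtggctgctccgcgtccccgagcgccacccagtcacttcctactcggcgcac
Kcnh2 (chr5:24329592-24329841, minus strand): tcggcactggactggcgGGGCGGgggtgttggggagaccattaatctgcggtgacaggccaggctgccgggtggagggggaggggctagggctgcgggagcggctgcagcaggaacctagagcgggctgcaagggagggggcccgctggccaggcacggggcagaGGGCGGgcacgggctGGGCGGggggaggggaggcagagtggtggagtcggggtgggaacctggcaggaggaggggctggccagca
The GENCODE gene start is the same base as the RefSeq start for Kcnh7 and Kcnh5, whereas the Kcnh2 window lies at an internal start, 22013 bases downstream of the GENCODE gene start.

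GC boxes numbered 4 in the Kcnh7 window, 1 in the Kcnh5 window and 3 in the Kcnh2 window. At least 1 was present in all 7 member windows and in 32.7% of all 32851 RefSeq windows of the same length. The windows were rich in G and C, at 67.6% for Kcnh7, 65.6% for Kcnh5 and 73.6% for Kcnh2, against a median of 52.4% over all windows. The GC box itself is made of G and C only, and its share among windows of like GC content was not tested. The motif AAGGTCA, the core of the site bound by NR5A1, and the cyclic AMP response element TGACGTCA were also searched on both strands, with no overlap in letters with the GC box. Neither was in the windows of Kcnh7, Kcnh5 or Kcnh2. AAGGTCA was found once among the members, in the Kcnh1 window, and in 4.08% of all windows, and TGACGTCA was in 0 member windows and 1.55% of all. A match here is a run of letters and not a measured binding site.

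Kcnh7, Kcnh2, Kcnh5 and Kcnh3 were higher in VMHpvlm, and no member was called higher in VMHpvll. The test was limma on log2(normalised read count + 1) over 14522 genes, with the pair as a block, and genes with a Benjamini-Hochberg adjusted p below 0.05 were called. By this rule 4 of 8 members were called higher in VMHpvlm, against 10.5% of all tested genes. In the other direction 0 of 8 were called, against 9.48% of all tested genes, and for 8 genes a count of 0 is near that share. The count was also 0 by edgeR and by DESeq2, and it was 1 (Kcnh8) without the F19 pair or without either F19 library. With all 6 libraries, Kcnh8 leaned toward VMHpvll without a call (limma unadjusted p = 0.0152). Counting both directions, 3195 of the 14522 tested genes had a p that small or smaller. The same 4 members had ranges that did not overlap between the regions with VMHpvlm above, which held for 14.5% of all tested genes. With a variance prior that had neither trend nor robust options, only Kcnh7 of these 4 was called. The median log2 difference (VMHpvlm minus VMHpvll) was 0.34 over the 8 members and 0.0025 over all tested genes. Library depth was between 7157831 and 11293159 reads, and every deposited value above 0 came back as a whole number of reads within 0.05. Gm42418, a locus that collects ribosomal RNA reads, took 11.6% to 15.1% of reads in VMHpvlm and 14.4% to 17.9% in VMHpvll and was the higher in VMHpvll in 3 of 3 pairs, and its part in the results was not tested. In captured tissue, more cells of a type and more RNA per cell cannot be told apart.

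**Figure D1:**
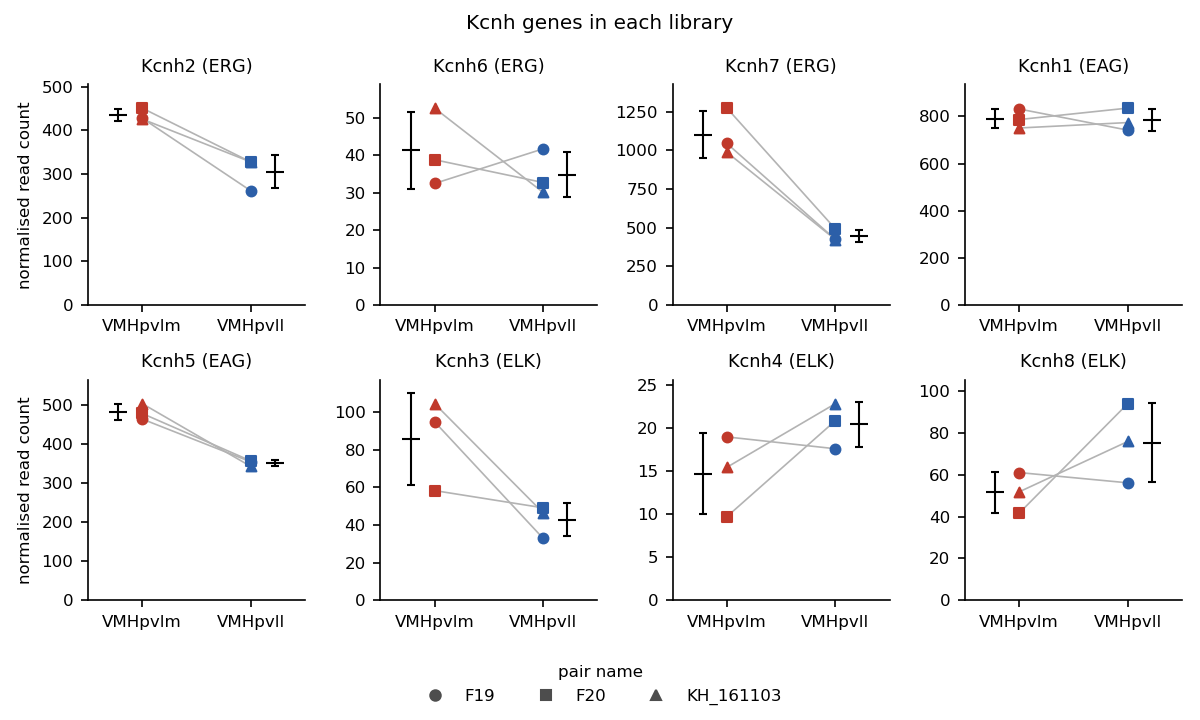
Normalised read counts of the 8 Kcnh genes in each library, with VMHpvlm in red and VMHpvll in blue, symbols for the pair names, grey lines joining libraries of 1 pair, and black bars for the mean and SD of 3 libraries. Kcnh2, Kcnh7, Kcnh5 and Kcnh3 were higher in VMHpvlm in 3 of 3 pairs, and Kcnh1 lay between 742 and 835 in all libraries.

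Among the ERG genes, Kcnh7 had by far the largest difference. Kcnh7, which encodes the ERG3 channel, spans 490874 bases on chromosome 2 (62693414 to 63184287, mm10) and has 15226 bases of annotated exon. Its normalised read counts were 1044, 1273 and 987 in the VMHpvlm libraries F19, F20 and KH_161103, against 423, 491 and 423 in the VMHpvll libraries. The lowest VMHpvlm library was above 2 times the highest VMHpvll one, and the F20 library was the highest of its region on both sides. Means were 1101 ± 151 in VMHpvlm, against 446 ± 39.6 in VMHpvll (SD, n = 3 each), so VMHpvlm was 2.47-fold higher. The log2 difference was 1.30 ± 0.064 (SE, limma adjusted p = 1.41e-20), and the pairs gave 1.30, 1.37 and 1.22. Only 80 of the 14522 tested genes, or 0.551%, had a log2 difference at least as large toward VMHpvlm. Between 330 and 1087 reads per library stood behind these values.

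Exons of Kcnh7 share 696 bases, 4.57% of its exon length, with Gca on the opposite strand, and no source used here says whether strand was used in counting. Gca, which encodes the calcium-binding protein grancalcin, averaged 49.3 ± 7.88 normalised counts in VMHpvlm, against 60.8 ± 13.0 in VMHpvll, with no call (limma adjusted p = 0.397). The part of reads from the shared bases in the Kcnh7 difference was not tested. Exons of Kcnh3 share 1 base with Mcrs1, and the other 6 members overlapped no annotated exon of another gene.

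Of the other ERG genes, Kcnh2 was also higher in VMHpvlm and Kcnh6 was not called. Kcnh2 (chromosome 5, 24319589 to 24351604), which encodes ERG1, the channel of the rapid delayed rectifier current of the heart, had 428, 451 and 426 normalised counts in VMHpvlm, against 262, 328 and 328 in VMHpvll. All VMHpvlm values exceeded all VMHpvll values, and F19 was the low library in VMHpvll. Means were 435 ± 14.0 in VMHpvlm, against 306 ± 38.1 in VMHpvll, so VMHpvlm was 1.42-fold higher (log2 0.52 ± 0.086 SE, limma adjusted p = 8.61e-06). Kcnh6 (chromosome 11, 106008124 to 106034549), which encodes ERG2, had 32.5, 38.9 and 52.7 in VMHpvlm, against 41.8, 32.8 and 30.1 in VMHpvll. The groups overlapped, the F19 pair differed in the opposite direction to the others, and the difference was not called (log2 0.22, 95% interval -0.28 to 0.73, limma adjusted p = 0.609). Kcnh6 rested on 22 to 58 reads per library.

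The EAG genes differed from each other. Kcnh5, which encodes EAG2 and lies on chromosome 12 from 74897220 to 75177332, had 465, 479 and 504 normalised counts in VMHpvlm, against 355, 357 and 343 in VMHpvll. Libraries of 1 region were close together and the groups were well apart. Means were 482.5 ± 20.01 in VMHpvlm, against 352 ± 7.59 in VMHpvll, so VMHpvlm was 1.37-fold higher (log2 0.45 ± 0.080 SE, limma adjusted p = 2.03e-05). Kcnh1, which encodes EAG1 and lies on chromosome 1 from 192190774 to 192510159, had 832, 787 and 751 in VMHpvlm, against 742, 835 and 774 in VMHpvll. These ranges covered each other almost fully. The log2 difference of Kcnh1 was 0.01 with a 95% interval of -0.11 to 0.14 (limma adjusted p = 0.933). The interval leaves out a difference of the size of those of Kcnh2 and Kcnh5. Kcnh1 rested on 561 to 848 reads per library.

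The ELK genes had low counts, and 1 of 3 was called. Kcnh3 (chromosome 15, 99224861 to 99242817), which encodes ELK2, a channel of forebrain neurons, had 94.8, 58.3 and 104 normalised counts in VMHpvlm, against 33.0, 49.1 and 46.6 in VMHpvll. The groups did not overlap, but the F20 libraries were much closer to each other than the other pairs. Means were 85.9 ± 24.3 in VMHpvlm, against 42.9 ± 8.68 in VMHpvll, so VMHpvlm was 2.001-fold higher (log2 0.96 ± 0.21 SE, limma adjusted p = 0.000528). The pairs gave log2 differences of 1.496, 0.24 and 1.15, and without the F19 library of VMHpvlm the call was lost (log2 0.70, limma adjusted p = 0.0561). Kcnh3 had 30 to 115 reads per library.

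Kcnh8 (chromosome 17, 52602709 to 52979194), which encodes ELK1, had 60.9, 41.6 and 51.8 in VMHpvlm, against 56.1, 93.8 and 75.8 in VMHpvll. The F20 and KH_161103 pairs were higher in VMHpvll and the F19 pair was not, and the groups overlapped. Means were 51.5 ± 9.66 in VMHpvlm, against 75.2 ± 18.9 in VMHpvll. The log2 difference was -0.53 with a 95% interval of -0.94 to -0.11, and it was not called (limma unadjusted p = 0.0152, adjusted p = 0.069). Without the F19 pair Kcnh8 was called higher in VMHpvll (log2 -0.85, limma adjusted p = 0.00601), and leaving out either F19 library alone gave the same difference and a call (adjusted p = 0.00709 without the VMHpvlm one and 0.00644 without the VMHpvll one). It was -0.21 on the log2 scale without the F20 pair. Kcnh4 (chromosome 11, 100740376 to 100759942), which encodes ELK3, had 18.96, 9.72 and 15.4 in VMHpvlm, against 17.6, 20.9 and 22.8 in VMHpvll, with 7 to 25 reads per library. It was not called (log2 -0.49, 95% interval -1.21 to 0.23, limma adjusted p = 0.392). Its interval, the widest of the 8, covers both no difference and one as large as that of Kcnh3 in the opposite direction.

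**Figure D2:**
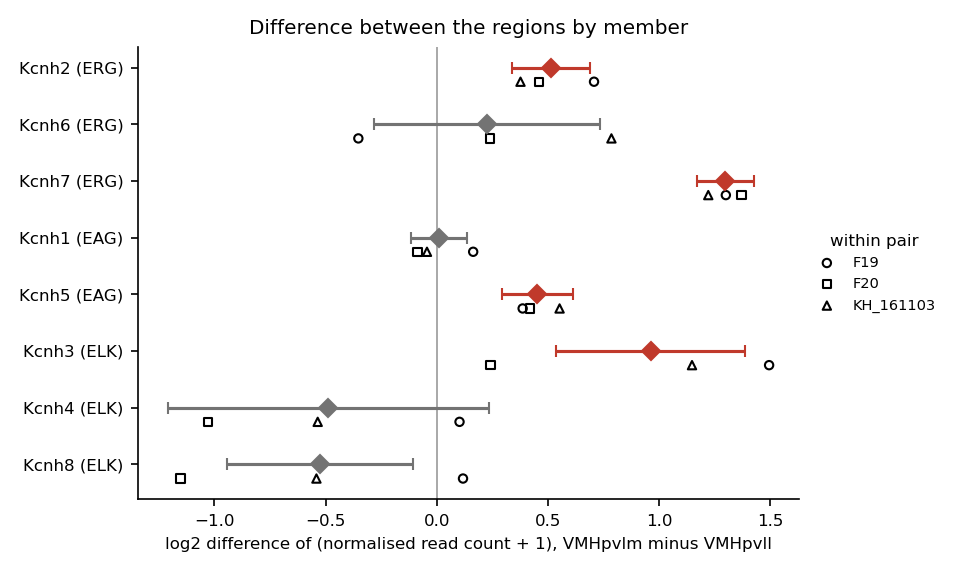
Log2 difference of normalised read count + 1 (VMHpvlm minus VMHpvll) of each Kcnh gene from limma, as a diamond with its 95% interval, red where called, with open symbols for the 3 pairs below it. The pairs of Kcnh7 lie between 1.22 and 1.37, whereas those of Kcnh3, Kcnh4, Kcnh6 and Kcnh8 spread by more than 1.

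Counts divided by exon length allow a rough comparison of levels between members, which depends on the length taken for each. In VMHpvlm the order per kb of exon was Kcnh5 (119 ± 4.93), Kcnh1 (108 ± 5.50), Kcnh2 (89.8 ± 2.88), Kcnh7 (72.3 ± 9.93), Kcnh3 (14.9 ± 4.23), Kcnh6 (11.7 ± 2.91), Kcnh8 (11.3 ± 2.12) and Kcnh4 (3.72 ± 1.18). In VMHpvll Kcnh1 (107 ± 6.48) was ahead of Kcnh5 (86.7 ± 1.87), and then came Kcnh2 (63.1 ± 7.87), Kcnh7 (29.3 ± 2.60), Kcnh8 (16.5 ± 4.14), Kcnh6 (9.83 ± 1.72), Kcnh3 (7.45 ± 1.51) and Kcnh4 (5.16 ± 0.669). The first 4 members were the same in both regions. The lowest Kcnh7 library was at 64.8 in VMHpvlm and 27.8 in VMHpvll, above the highest library of the next member, which was 18.1 for Kcnh3 in VMHpvlm and 20.6 for Kcnh8 in VMHpvll. Kcnh5 was above Kcnh1 in 3 of 3 VMHpvlm libraries and below it in 3 of 3 VMHpvll libraries. Neighbours whose ranges overlapped were Kcnh3 with Kcnh6 and Kcnh6 with Kcnh8 in VMHpvlm, and Kcnh6 with Kcnh3 and Kcnh3 with Kcnh4 in VMHpvll. Lengths came from GENCODE M21, which may differ from the annotation the authors counted on. With the length of the longest coding transcript in its place, the order was the same in VMHpvlm, and in VMHpvll only Kcnh6 and Kcnh3 changed places. Both lengths are long for Kcnh7, at 15226 and 13321 bases, so this swap says little about its place. Kcnh7 has 3 annotated coding transcripts, and which of them were present was not tested. A shorter transcript in use would raise its level per kb.

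The make-up of the family per kb of exon differed between the regions. The 8 members summed to 430 ± 3.83 per kb in VMHpvlm and 325 ± 20.4 in VMHpvll. ERG genes took 38.7%, 43.2% and 39.2% of that sum in VMHpvlm, against 30.7%, 31.6% and 32.0% in VMHpvll, with no overlap. EAG genes took 52.7 ± 0.726% in VMHpvlm and 59.7 ± 1.96% in VMHpvll, and ELK genes 6.96 ± 1.71% in VMHpvlm and 8.91 ± 1.36% in VMHpvll. Kcnh7 by itself took 16.8 ± 2.15% in VMHpvlm and 9.005 ± 0.406% in VMHpvll, and Kcnh1 took 25.04 ± 1.29% in VMHpvlm and 32.9 ± 0.343% in VMHpvll. The level of Kcnh1 per kb was nearly the same, at 108 ± 5.50 in VMHpvlm and 107 ± 6.48 in VMHpvll. Its smaller share in VMHpvlm thus reflects the larger sum there. ERG genes together summed to 174 ± 12.04 per kb in VMHpvlm and 102 ± 7.92 in VMHpvll, EAG genes to 227 ± 1.28 in VMHpvlm and 194 ± 7.31 in VMHpvll, and ELK genes to 29.9 ± 7.13 in VMHpvlm and 29.1 ± 6.08 in VMHpvll. The ELK sums overlapped, with Kcnh3 and Kcnh8 on opposite sides, and the ERG and EAG sums did not. These sums and shares rest on the same exon lengths, are given as a description and were not tested.

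**Figure D3:**
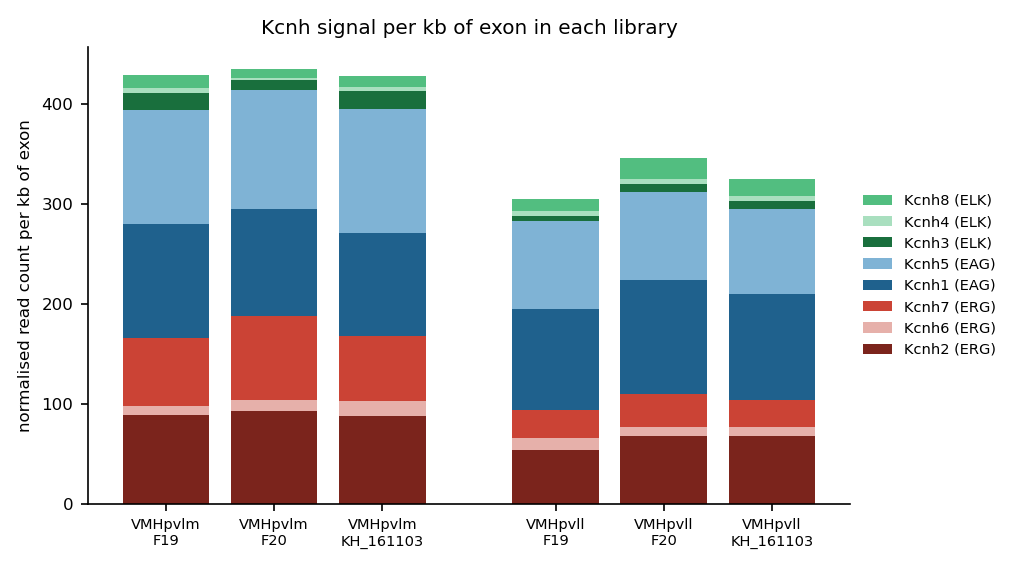
Stacked normalised read counts per kb of annotated exon of the 8 Kcnh genes, 1 bar per library, with ERG genes in reds, EAG genes in blues and ELK genes in greens. VMHpvlm bars reach between 428 and 435 and VMHpvll bars between 305 and 346, and the Kcnh1 layer has nearly the same height in all 6.

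Ratios between 2 members within a library do not depend on the scaling of libraries. The ratio of Kcnh7 to Kcnh1 counts was 1.26, 1.62 and 1.31 in VMHpvlm, against 0.570, 0.588 and 0.546 in VMHpvll. The ratio of Kcnh7 to Kcnh2 was 2.44, 2.82 and 2.32 in VMHpvlm, against 1.62, 1.5 and 1.29 in VMHpvll, again with no overlap. Kcnh7 thus took more reads per Kcnh2 read in each VMHpvlm library than in any VMHpvll library. Measured against Kcnh1 in the same way, Kcnh2 was at 0.515, 0.573 and 0.567 in VMHpvlm, against 0.353, 0.392 and 0.423 in VMHpvll. Kcnh5 per Kcnh1 was 0.559, 0.608 and 0.671 in VMHpvlm, against 0.479, 0.428 and 0.443 in VMHpvll. Neither ratio overlapped between the regions, whereas Kcnh7 per Kcnh3 did, at 14.1 ± 6.74 in VMHpvlm and 10.6 ± 1.96 in VMHpvll. The ratio of Kcnh3 to Kcnh8, both ELK genes, was 1.66 ± 0.321 in VMHpvlm and 0.576 ± 0.0466 in VMHpvll, whereas the ratio of Kcnh5 to Kcnh2 overlapped, at 1.11 ± 0.0646 in VMHpvlm and 1.17 ± 0.168 in VMHpvll.

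Among other voltage-gated potassium channel subunits, of the Kcna, Kcnb, Kcnc, Kcnd, Kcnf, Kcng, Kcnq, Kcns and Kcnv groups, 27 of 32 were tested. Of these 27, 15 were called higher in VMHpvlm and 6 in VMHpvll (10.5% and 9.48% of all tested genes), with a median log2 difference of 0.25. Kcnq3, a subunit of the M-type channel, averaged 2537 ± 209 in VMHpvlm, against 1564 ± 106 in VMHpvll. Kcna2, an axonal delayed rectifier subunit, was 1.58-fold higher in VMHpvlm, and Kcnc2, a subunit of fast-spiking neurons, 1.76-fold higher. Kcnq5, another M-type subunit whose exons overlap Gm26580, was lower in VMHpvlm, at 579 ± 41.2 in VMHpvlm and 1651 ± 119 in VMHpvll. Within that list the log2 differences of these 4 genes were 0.70, 0.66, 0.81 and -1.51, the first 3 smaller than that of Kcnh7.

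Genes whose products bind or regulate EAG and ERG channels were called in both directions. Of 29 listed genes with deposited values, 26 were tested. Of these, 4 were called higher in VMHpvlm and 5 in VMHpvll (10.5% and 9.48% of all tested genes), with a median log2 difference of -0.012. Calm3, which encodes calmodulin, averaged 7998 ± 96.4 in VMHpvlm, against 7239 ± 328 in VMHpvll, a ratio of 1.10. Camk2b, which encodes a calmodulin-dependent kinase, was 1.20-fold higher in VMHpvlm, and Hspa8, a chaperone of channel folding whose exons host small nucleolar RNAs, was 0.926-fold of VMHpvll. Of the Kcne genes, whose small subunits modify ERG channels in other tissues, Kcne1, Kcne2 and Kcne3 averaged at most 3.29 normalised counts in either region and were not tested. Kcne4, at 17.5 ± 3.08 in VMHpvlm and 17.2 ± 6.90 in VMHpvll, and Kcne1l, at 56.8 ± 13.1 in VMHpvlm and 46.6 ± 14.2 in VMHpvll, were tested and not called. HCN and CNG channels, which carry a related domain at their end, gave 2 calls, both toward VMHpvlm, among 7 tested of 10, where 10.5% of all tested genes were called toward VMHpvlm and 9.48% toward VMHpvll. Cngb1 averaged 56.4 ± 13.3 in VMHpvlm, against 31.3 ± 4.22 in VMHpvll, and Hcn2 682 ± 49.1 in VMHpvlm, against 601 ± 28.5 in VMHpvll (limma adjusted p = 0.0457). Hcn4 had a log2 difference of -0.31 and was not called (limma unadjusted p = 0.0157, adjusted p = 0.0708).

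**Figure D4:**
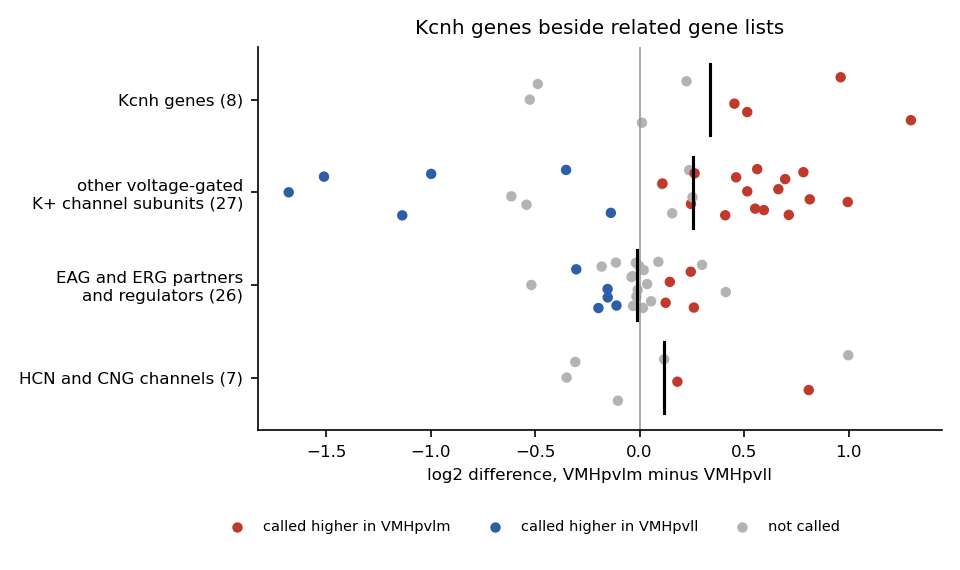
Log2 difference of each tested gene, taken as VMHpvlm minus VMHpvll, for the Kcnh genes and 3 related lists. Numbers in brackets count the genes, red and blue mark calls toward VMHpvlm and VMHpvll, grey marks no call, and black lines are medians. The Kcnh median is 0.34, beside 0.25 for the other potassium channel subunits, -0.012 for partners and regulators and 0.12 for HCN and CNG channels.

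Markers of most other cell types differed between the regions as well. Beside the counts below, 10.5% of all tested genes were called higher in VMHpvlm and 9.48% in VMHpvll. GABAergic markers were called higher in VMHpvll for 6 of 6 tested of 8 and summed to between 2263 and 2461 normalised counts in VMHpvlm and between 3681 and 4272 in VMHpvll. Oligodendrocyte markers were called higher in VMHpvll for 9 of 10, with sums of 11972 to 13697 in VMHpvlm and 16138 to 17374 in VMHpvll. Astrocyte markers (4 of 10, 29892 to 31983 in VMHpvlm and 34919 to 40016 in VMHpvll), vascular markers (6 of 10, 1747 to 2206 in VMHpvlm and 2557 to 3302 in VMHpvll) and precursors of oligodendrocytes (4 of 6, 1582 to 1829 in VMHpvlm and 1950 to 2091 in VMHpvll) had their calls and sums on the same side. Slc1a2 alone averaged 19436.6 in VMHpvlm and 24862.5 in VMHpvll, most of the astrocyte sum. The other 6 of 10 astrocyte markers were not called. Microglia markers had a median log2 difference of -0.049, with sums of 1279 to 1394 in VMHpvlm and 1366 to 1527 in VMHpvll. No marker of these lists was at 0 in every library. Pan-neuronal markers were called higher in VMHpvlm for 5 of 12, with a median log2 difference of 0.075 and sums of 80205 to 85951 in VMHpvlm and 75412 to 80624 in VMHpvll. Of 8 VMH markers, 5 were called higher in VMHpvlm and 2 in VMHpvll. Nr5a1, a transcription factor gene that marks the VMH, averaged 308 ± 19.5 in VMHpvlm, against 31.5 ± 6.73 in VMHpvll. The hormone receptor genes Esr1 and Pgr were on the other side, with Esr1 at 513 ± 74.0 in VMHpvlm, against 1490 ± 63.8 in VMHpvll, and Pgr at 1229 ± 98.7 in VMHpvlm, against 3410 ± 197 in VMHpvll. Sums over the 8 were 11714 to 11873 in VMHpvlm and 12450 to 12881 in VMHpvll. The part of these cell types and markers in the differences of the Kcnh genes was not tested.

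Among the members themselves, Kcnh7 varied over the 6 libraries most like Kcnh5 (Pearson r = 0.962 on log2 values) and Kcnh2 (0.936), and Kcnh4 most like Kcnh8 (0.866). Kcnh7 and Kcnh8 had r = -0.697. Members called for the same regional difference correlate through that difference, so these values carry no p. Kcnh4 had only 7 to 25 reads per library.

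The genes whose levels over the 6 libraries were most like those of each called member were found by Pearson correlation of log2 values among 11126 genes with a mean of at least 50. These correlations rest mainly on the difference between 2 groups of 3 libraries that share scaling and depth, and carry no p. For Kcnh7 they were Doc2b (r = 0.9998), a calcium sensor of vesicle fusion, Kcnq3 (0.9985) and Trhr (0.9975), the receptor of thyrotropin-releasing hormone, and 127 genes exceeded 0.98. Doc2b was 1.64-fold and Trhr 2.001-fold higher in VMHpvlm, so the likeness is one of shape and not of size. For Kcnh5 they were Fam212b (0.998), Slitrk3 (0.997), a synaptic adhesion protein, and Cntnap4 (0.997), a neurexin-related protein that was at 1055 ± 72.9 in VMHpvlm and 479 ± 41.1 in VMHpvll. For Kcnh2 they were H2-Q2 (0.996), Wdr7 (0.996) and Ctsb (0.996), the lysosomal protease cathepsin B. H2-Q2 belongs to a family of near-identical genes, so its counts are uncertain. For Kcnh3 they were Ubxn11 (0.990), Snph (0.988), which anchors axonal mitochondria, and Mpp1 (0.981), and only 4 genes exceeded 0.98. Fam212b has no entry under that name in GENCODE M21. Exons of Doc2b, Cntnap4, Wdr7, Ctsb, Ubxn11 and Mpp1 overlap those of other genes.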

How the data were processed

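The authors' deposited table gave, as its unit, a signal for 47480 genes in 6 libraries: counts per gene over a library-wide scaling constant. HISAT2, featureCounts and mm10 are named per the submitters' processing notes, without versions, and the library kit was a stranded one for total RNA, per the labels' protocols. Scaling tool, annotation and strand setting: not given in the sources used here. Whole reads were recovered from the steps between low values: 100% of values above 0 were whole within 0.05 reads.

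For 14522 genes whose mean reached 10, log2(value + 1) was fitted by limma 3.58.1 (R 4.3.3; eBayes with trend and robust), with the pair name as a fixed block. Tests were two-sided, with Benjamini-Hochberg adjustment over all tested genes. With 2 residual degrees of freedom and a median of 39.9 from the prior, p-values lean on the variance pooled over genes. The log2(value + 1) scale shrinks differences of low genes. Folds divide 1 region mean by the other. The pairing was taken from the names in the titles, and where it comes from is not given there. Same-named libraries deviated together from their region means (r = 0.255, 0.244 and 0.363, against -0.247 to 0.0067 for other combinations). Deviations from a region mean cancel out within the region, so positive same-name values push the others down. That contrast is therefore partly arithmetic. Within a region, libraries stood apart beyond counting noise (chi-square per degree of freedom 5.58 to 10).

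The members, the gene lists and the tests were chosen with earlier results of these data known. All 8 members are named, with up to 4 genes of smallest p per related list (some are not reported here), the 3 genes most correlated with each called member, and genes that overlap a member; the Kcne genes, 3 VMH markers and Gm42418 were named after their values were seen. Positions, lengths and overlaps came from GENCODE M21 and promoter sequences from RefSeq. Alternatives were a fit with no block or with the pair as a random effect, other pseudocounts (0.5 and 5), filters, scalings and priors, edgeR 4.0.16 and DESeq2 1.42.0 on recovered reads, and each pair or library left out.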

Additional observations from a re-analysis of the deposited data

How the results depend on the processing

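Without the replicate block, Kcnh2, Kcnh3, Kcnh5 and Kcnh7 were still called higher in VMHpvlm, and 1800 genes in all were called, against 2905 with it. The block thus changed no call of a Kcnh gene. The same 4 members were called with a random pair effect, both pseudocounts, every filter and scaling, edgeR (3031 genes called in all) and DESeq2 (1230). With a variance prior without trend or robust, only Kcnh7 was called among the members, 1 of 8 (limma adjusted p = 0.027), and 422 genes in all; Kcnh2 (0.0893), Kcnh5 (0.0725) and Kcnh3 (0.164) lost the call, and the cause was not tested. When each pair or library was left out, between 1738 genes, without the KH_161103 library of VMHpvlm, and 2889 genes were called in all, the number of members called higher in VMHpvll was between 0 and 1 (Kcnh8, without F19), and Kcnh7 stayed between 1.26 and 1.34. The uncalled differences of Kcnh1 ranged from -0.065 without F19 to 0.060, and those of Kcnh6 from -0.056 without KH_161103 to 0.51. Leaving out 1 library of a pair gives the same difference as leaving out both, since the block then absorbs the other. Kcnh4 and Kcnh6 were below the filter at a mean of 50. The log2 differences of the called members ranged from 0.42 to 0.58 for Kcnh2, 0.40 to 0.49 for Kcnh5 and 0.70 to 1.32 for Kcnh3 over all alternatives. Depth limits Kcnh4 most, with 7 reads in 1 library.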
